A study of Daphnia magna with 20 samples.

Results

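A set of 172 transcript targets, of 26646 measured in whole water fleas (Daphnia magna), stood far above the rest of its group in 2 of 20 pools of animals, 1 untreated and 1 exposed, called the high pools here. A target was a member when its level in control pool 1 was at least 8 times that in each of control pools 2, 4, 5 and 6, and its level in pool 5 of the lower dose was at least 8 times that in each of pools 1, 2, 3 and 6 of that dose. The level is CPM, the estimated counts of a target per 1000000 counts of its library, and 0.5 was added before the ratios were taken. The members were therefore chosen by their values in the control and lower-dose libraries, so their values there, and all comparisons with control, are a description: the counts of members called in those comparisons support nothing about the members. The 5 libraries of the higher dose and the 5 libraries of the ion group played no part in the choice.

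The study gave wild-type daphnids the battery cathode material lithium cobalt oxide (LCO) as a nanomaterial and sequenced RNA from the whole animals. Each of 4 groups held 5 libraries, each made from 10 pooled animals that were 5 days old when the exposure of 48 h began. The groups were an untreated control in moderately hard water, a lower LCO dose of 1 mg/L, a higher one of 10 mg/L, and dissolved ions at 66 µg/L lithium and 15 µg/L cobalt, given as their chlorides. All animals received alfalfa as food at the start and after 24 h. The labels do not say whether the pools came from separate vessels, so the spread between libraries may be partly technical. Pool 1 of the higher dose has the tag of an untreated sample, and it was placed at 10 mg/L by its title; its median member level lay within the range of the other libraries of that dose. Because whole animals were pooled, a transcript made by more cells or by more animals of a pool cannot be told apart from more of it in each cell.

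Daphnids grow by shedding their cuticle and forming a new one underneath, and they carry their young in a brood chamber that is emptied around each moult. In arthropods, transcripts for cuticle proteins and for the hormone signals of moulting come and go with the stage of this cycle, so animals sampled together can differ if their cycles are out of step. The labels give no moult or brood stage for the pools, and the files do not pair the target identifiers with gene names (0 of 26646 matched the gene table), so the functions of the members are not known here and the part of such a stage was not tested.

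In control pool 1 the members stood at a median of 82.6 CPM, with a lowest value of 4.58 and a highest of 2997. LCO 1 mg/L pool 5 had a median of 34.9 CPM, with a range from 4.78 to 768. The remaining control pools had medians of 0.323, 0.33, 0.275 and 0.287 CPM in pools 2, 4, 5 and 6. Pools 1, 2, 3 and 6 of the lower dose had medians of 0.228, 0.251, 0.248 and 0.232 CPM. Both high pools lay above every one of these 8 comparison libraries, as the choice of members requires. Together the members took 4.13% of all counts in control pool 1 and 1.36% in LCO 1 mg/L pool 5. In the 8 comparison libraries their share ran from 0.0192% to 0.0308%. Total counts were 38637064 in control pool 1 and 25111305 in LCO 1 mg/L pool 5, within the range of 20744445 to 44181066 over all libraries.

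**Figure D1:**
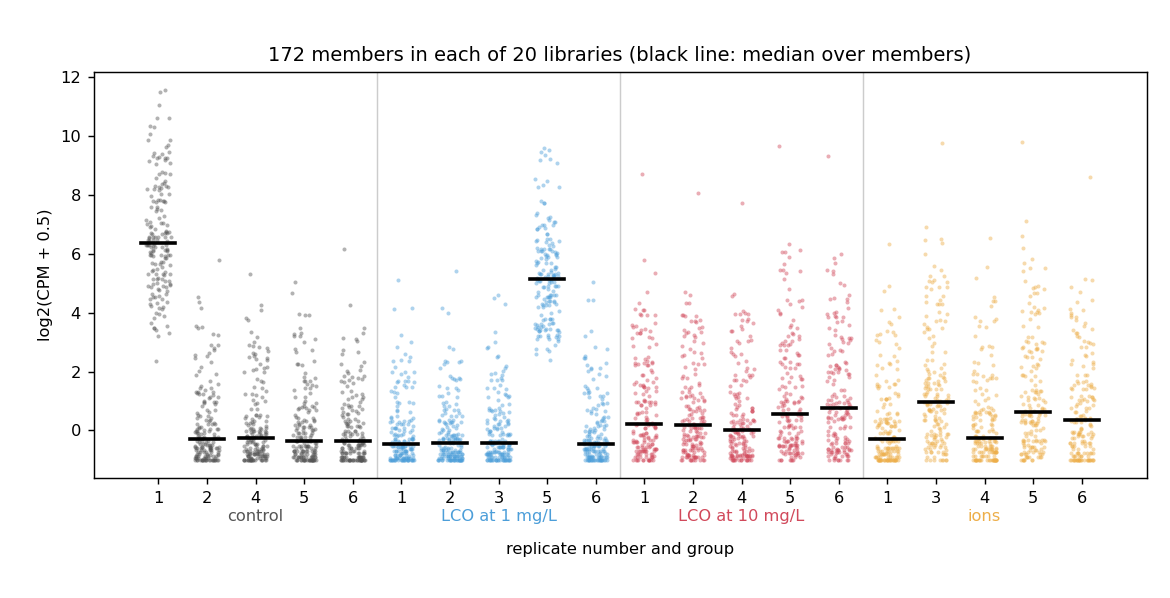
Each point is 1 of the 172 members, plotted as log2(CPM + 0.5) in each of the 20 libraries, with the black line at the median over members. Control pool 1 (median 6.38) and LCO 1 mg/L pool 5 (5.15) stand above every other library, and the LCO 10 mg/L and ion libraries have medians from -0.28 to 0.96.

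The rise was large for most members. The ratio of control pool 1 to the highest other control library, on the scale of CPM + 0.5, had a median of 57.8 and ran from 8.36 to 3008. The corresponding ratio in LCO 1 mg/L pool 5 had a median of 28.2 and ran from 8.06 to 832. At least 16-fold was reached by 149 members in control pool 1 and by 127 members in LCO 1 mg/L pool 5. At the edge of the rule, the smaller of the ratios was 8.06, 8.12 and 8.26 for the members just inside and 8.00, 7.99 and 7.90 for the targets just outside. The added 0.5 CPM sets the ratio of members that were barely seen elsewhere. In all, 108 members stayed under 1 CPM in all 8 comparison libraries, and 10 had fewer than 3 counts in each of them, where 3 counts correspond to 0.0707 to 0.123 CPM. The lowest count of any member was 177 in control pool 1 and 120 in LCO 1 mg/L pool 5, in different members.

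**Figure D2:**
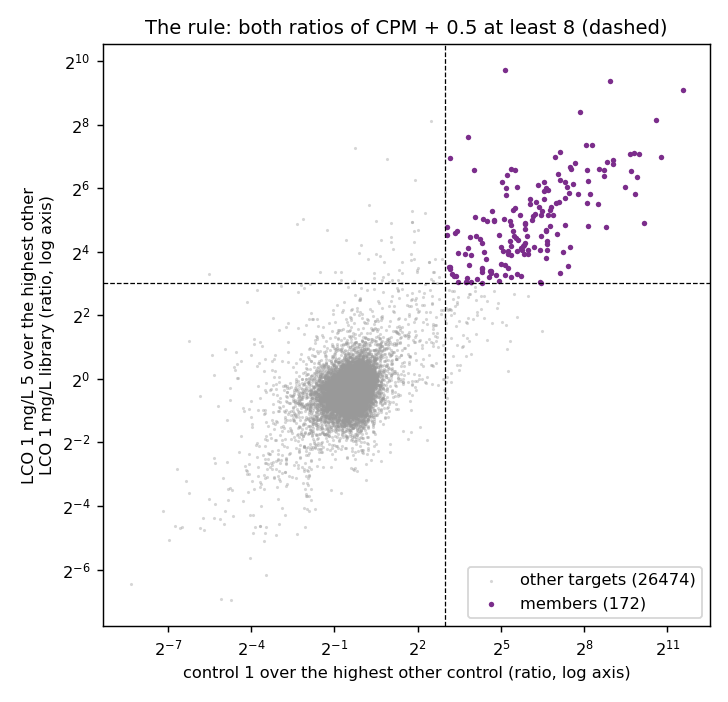
For every target, the ratio of control pool 1 to the highest other control library (horizontal) is plotted against the ratio of LCO 1 mg/L pool 5 to the highest other library of its group (vertical), both on log axes. The 172 members lie beyond 8 on both axes (dashed lines), and all other targets are shown in grey.

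Taken alone, the condition on control pool 1 was met by 241 targets and the condition on LCO 1 mg/L pool 5 by 237, so the shared set was 71.4% of the first list and 72.6% of the second. The 69 targets that met only the first condition had a median ratio of 3.76 in LCO 1 mg/L pool 5, and 32 of them were between 4 and 8. The 65 that met only the second had a median ratio of 2.17 in control pool 1, and 28 of them were under 2. Among the other 18 libraries, the largest number of targets that stood at least 8-fold above all other libraries of their group was 6, in control pool 4. None of those could be a member, since the rule puts control pool 1 above control pool 4 for every member.

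Levels of members can be compared with each other in TPM, which corrects for target length. In control pool 1 the median over members was 110.0 TPM, and they ran from 2.89 to 3023 TPM. In LCO 1 mg/L pool 5 the median was 44 TPM and the range 1.16 to 2680. The 10 most abundant held 35.2% of the members' TPM in control pool 1 and 41.9% in LCO 1 mg/L pool 5, and the 50 most abundant held 79.7% and 78.6%. Among all targets, 77 members ranked within the top 1000 by TPM in control pool 1 and 37 did so in LCO 1 mg/L pool 5.

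The high pools did not hold the members in 1 fixed proportion. The CPM of a member was higher in control pool 1 than in LCO 1 mg/L pool 5 for 152 members and lower for 20. The ratio of the former to the latter had a median of 2.6 with quartiles at 1.61 and 4.47. It reached 54.8 at the upper end, and at the lower end the member was 11.3-fold higher in LCO 1 mg/L pool 5. Across the 172 members, log2(CPM + 0.5) in these libraries had a Pearson correlation of 0.69 and a Spearman correlation of 0.70. Members are not independent replicates, and several share reads.

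The most abundant member by mean TPM over the high pools was KZS06882, a target of 1044 bases. It stood at 2141 CPM in control pool 1 and at 0.103, 0.212, 0.0787 and 0 CPM in control pools 2, 4, 5 and 6. At the lower dose it stood at 581 CPM in pool 5 and at 0.0285, 0.0528, 0.106 and 0.566 CPM in pools 1, 2, 3 and 6. KZS06882 was thus under 1 CPM in all 8 comparison libraries and at 581 CPM or more in both high pools. At 10 mg/L LCO it stood at 10.5, 5.78, 2.77, 5.66 and 12.5 CPM in pools 1, 2, 4, 5 and 6. In the ion group it stood at 0.322, 11.8, 0.193, 16 and 14.5 CPM in pools 1, 3, 4, 5 and 6. The LCO 10 mg/L libraries were all above the 8 comparison libraries, whereas ion pools 1 and 4 were within their range.

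KZS06887, the second by TPM, is a target of 886 bases and had 1547 CPM in control pool 1 against 1.52, 0.942, 2.67 and 1.31 CPM in control pools 2, 4, 5 and 6. It had 597.5 CPM in LCO 1 mg/L pool 5 against 0.285, 0.396, 0.248 and 0.378 CPM in pools 1, 2, 3 and 6. In the LCO 10 mg/L pools 1, 2, 4, 5 and 6 it had 11.3, 6.31, 3.87, 7.8 and 14.1 CPM. In ion pools 1, 3, 4, 5 and 6 it had 0.764, 15.6, 1.35, 13.2 and 12.8 CPM. Ion pools 1 and 4 again lay with the low control libraries and the other ion libraries with or above those of LCO at 10 mg/L. Its mean was 8.68 CPM ± 4.06 for LCO and 8.76 CPM ± 7.11 for the ions (SD, n = 5 in either group). The log2 fold change of LCO over ions, -0.04 with an SE of 0.7, did not pass edgeR's quasi-likelihood test (adjusted p = 0.975).

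Many members had identifiers that follow each other. Of the 172, 67 (39%) had an identifier whose number is next to that of another member, and these formed 22 runs. The longest run held 11 members, KZS06878 to KZS06888, which includes both of the members above. Its members stood between 19.6 and 2997 CPM in control pool 1 and between 8.93 and 768 CPM in LCO 1 mg/L pool 5, and none exceeded 9.24 CPM in the 8 comparison libraries. A run of 6, KZS12044 to KZS12049, followed, with 9.4 to 2896 CPM in control pool 1 and 6.29 to 308 CPM in LCO 1 mg/L pool 5. These runs were singled out after their values were seen, and the place of the targets in the genome was not looked up. Targets numbered next to a member without being one numbered 249. At least a 2-fold excess in both high pools was found for 29 of these (11.6%), against 0.793% of all targets that were not members. This excess is taken from the same ratios that chose the members, so the shares are a description. Whether these neighbours share reads with members was not tested.

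Members also often shared reads with similar targets. A fractional count, which arises when a read is divided between targets, was found for 68 members in control pool 1 (39.5%, differing from a whole number by over 0.001). The share was 15.5% among the 13893 targets with a mean of at least 1 CPM over all libraries. Those targets were not matched to the members for their level in control pool 1, so the shares are not strictly alike. In the run of 11, the counts of 8 members were fractional in control pool 1, so their separate levels are uncertain. Counts were whole in both high pools for 97 members. The median length was 1162 bases over members, 1313.5 bases over all targets and 2001 bases over the targets with at least 1 CPM.

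In the 10 libraries that the rule did not use, no library reached the level of the high pools. The median over members at 10 mg/L LCO was 0.677, 0.648, 0.508, 0.99 and 1.21 CPM in pools 1, 2, 4, 5 and 6. In the ion group it was 0.326, 1.44, 0.337, 1.06 and 0.766 CPM in pools 1, 3, 4, 5 and 6. Ion pool 3 was the highest of the 10 and ion pool 1 the lowest, and the range of the LCO libraries lay inside that of the ions. Every LCO 10 mg/L library and ion pools 3, 5 and 6 exceeded the highest of the 8 comparison medians, 0.33 CPM. Ion pool 4 was barely above it and ion pool 1 below it. The members took 0.0605% to 0.188% of the counts at 10 mg/L and 0.0396% to 0.221% with ions.

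Relative to the median of the 8 comparison libraries, 54, 47, 34, 67 and 78 members were at least 2-fold higher in LCO 10 mg/L pools 1, 2, 4, 5 and 6. The same was true of 20, 89, 25, 76 and 54 members in ion pools 1, 3, 4, 5 and 6. The 8-fold mark was reached by up to 22 members in an LCO library and up to 28 in an ion library. At most 0.5 times the median was found for 4, 2, 6, 0 and 3 members in the same ion pools. Among the LCO libraries only pool 2 had such a member (1). The 0.5 CPM added here limits how far a low member can fall. Shares of all targets past these marks were not computed, so these counts do not set the members apart. All 5 LCO 10 mg/L libraries lay above all 8 comparison libraries for 50 members (29.1%, against 2.69% of all targets), and all 5 ion libraries did so for 17 (9.88%, against 4.34%). No member had all libraries of a group below those 8, against shares of all targets of 2.56% (LCO at 10 mg/L) and 4.21% (ions). The rule bounds the members from above in those 8 libraries, so these shares are a description. For 162 members both high pools remained above all other 18 libraries.

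The other 10 members reached the lower of their levels in the high pools in at least 1 LCO 10 mg/L or ion library. The most abundant of these by mean TPM was KZS16930, named after its values were seen. It had 782 CPM in control pool 1 and 652 in LCO 1 mg/L pool 5, and between 23.8 and 71.7 CPM in the 8 comparison libraries. In LCO 10 mg/L pools 1, 2, 4, 5 and 6 it had 419.6, 268, 210.5, 805 and 643 CPM. In ion pools 1, 3, 4, 5 and 6 it had 80.2, 865, 92.8, 893 and 391 CPM. This member was as high in LCO 10 mg/L pool 5 and in ion pools 3 and 5 as in control pool 1, and no LCO or ion library was within the range of the 8 comparison libraries.

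Many of the members with more counts varied together in these 10 libraries, though not every pair did. Over the 82 members with a mean of at least 1 CPM there, the median Pearson correlation between pairs of members was 0.53 after the group means were removed (log2(CPM + 0.5), 10 libraries). Between pairs of the 13751 targets past the same mean it was 0.01. The quartiles were 0.096 and 0.78 over pairs of members and -0.35 and 0.37 over pairs of targets. A correlation over 0.8 was found for 23.2% of the pairs of members and 2.93% of the pairs of targets. Among 50 of these members whose counts were whole in all 20 libraries the median was 0.48. The points of each correlation share their libraries and depth, and the members were chosen for moving together elsewhere, so the values describe these 10 libraries. The SD within a group had a median of 0.8 over the 82 members and 0.25 over the 13751 targets (log2). At a mean of at least 10 CPM it was 1.07 over 21 members and 0.2 over 8989 targets. That mean is taken over the same 10 libraries, so a target can pass through a few high pools. The lowest count among the 21 members was 1.

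The pools that were high in the set were not the same for all members. One member was at 0 in all 10 libraries. Among the other 171, the highest library was ion pool 3 for 59 members, LCO 10 mg/L pool 5 for 34 and ion pool 5 for 21. Ion pool 6 was the highest for 13, LCO 10 mg/L pool 6 for 12, ion pool 4 for 11 and LCO 10 mg/L pool 1 for 7. KZS06882 and KZS06887 illustrate one order, with ion pool 6 near ion pools 3 and 5. In KZS16930 ion pool 6 was well below both. The highest value of a member was a median of 2.99 times its lowest over the 10 libraries (CPM + 0.5). It was at least 8 times for 31 members and under 2 times for 53. Only 82 members had a mean of at least 1 CPM there. For members with few counts or a small spread, the library that came out highest may rest on counting error.

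**Figure D3:**
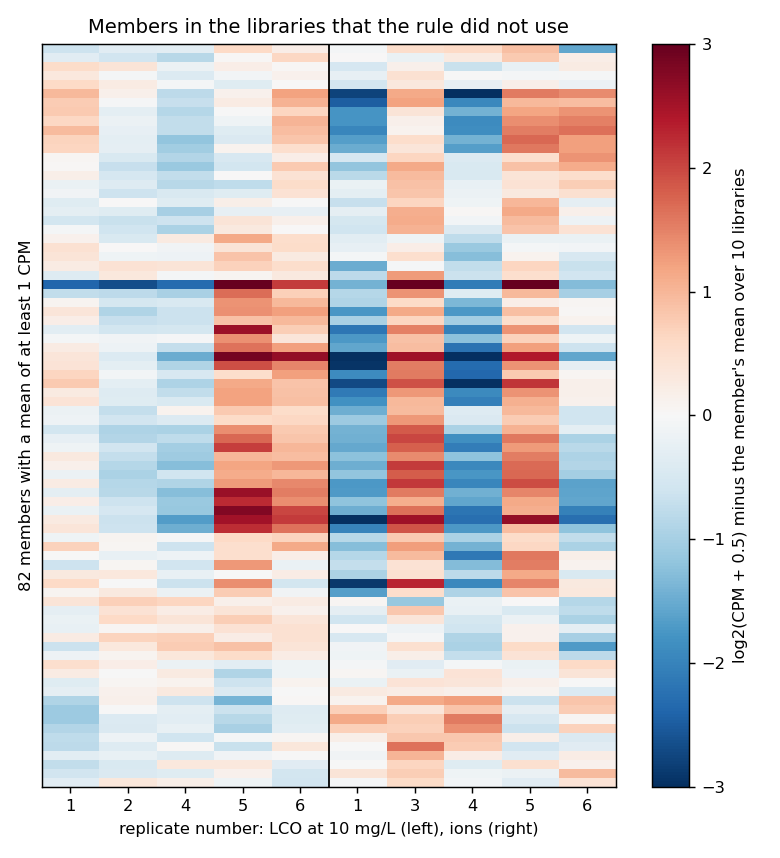
Each row is 1 of the 82 members with a mean of at least 1 CPM in the LCO 10 mg/L (left) and ion (right) libraries, coloured by log2(CPM + 0.5) minus the row's mean, with rows ordered by similarity. Many rows are high in LCO 10 mg/L pools 5 and 6 and in ion pools 3 and 5, and low in ion pools 1 and 4, while the lowest rows follow other orders.

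The comparison of LCO at 10 mg/L with the ions is the one that the choice of members did not touch, and it was fitted on those 10 libraries alone. Of 117 members with enough counts to be tested, 9 passed edgeR's quasi-likelihood test at an adjusted p of 0.05 (7.69%), 2 higher and 7 lower with LCO. Over all 15545 targets tested, 3146 were called (20.2%), with 8.98% higher and 11.3% lower. The median log2 fold change was -0.15 over the members tested and 0.01 over all targets tested. At an unadjusted p under 0.05 there were 17 members (14.5%), against 39.2% of all targets tested. The number called was between 3 and 5 without any 1 of the LCO 10 mg/L pools, while 8.11% to 14.5% of all targets were called. It was 4 without ion pool 1 (10.8% of all targets), 3 without ion pool 4 (9.18%) and 14 without ion pool 5 (35.6%). It was 0 when all 20 libraries shared 1 estimate of the spread, to which the high pools then contribute, and no member then had an unadjusted p under 0.05, while 25.1% of all targets were still called.

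The member with the smallest p was KZS16273, lower with LCO, a target of 2500 bases. It had 0.0734, 0.193, 0.249, 0.217 and 0.327 CPM in LCO 10 mg/L pools 1, 2, 4, 5 and 6. In ion pools 1, 3, 4, 5 and 6 it had 1.37, 0.746, 0.916, 0.513 and 1.09 CPM. The groups did not overlap, and both lay far under the 1297 CPM of control pool 1. These levels are low: LCO 10 mg/L pool 1 was under the 0.11 CPM that 3 counts make there. The group medians of this member were 0.45 CPM in control and 0.283 CPM at 1 mg/L. The log2 fold change was -2.09 (SE 0.37, edgeR adjusted p = 0.00787), and with all 20 libraries in the fit the adjusted p was 0.555.

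KZS17888, of 4258 bases, was also lower with LCO, at 9.47, 13, 15, 8.82 and 14 CPM in LCO 10 mg/L pools 1, 2, 4, 5 and 6. In ion pools 1, 3, 4, 5 and 6 it stood at 29.6, 29, 46.4, 11.1 and 28.9 CPM. Ion pool 5 lay within the range of LCO at 10 mg/L and the other ion libraries above it. The log2 fold change was -1.29 (SE 0.31, edgeR adjusted p = 0.0204). The adjusted p was 0.0531 without LCO 10 mg/L pool 5 and 0.279 with all 20 libraries in the edgeR fit. In the control group the member had 228 CPM in pool 1 and 22.4, 12.8, 24.7 and 10.7 CPM in pools 2, 4, 5 and 6, so it was present in every control library.

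The higher members were KZS03231 and KZS12046, the latter from the run of 6. KZS03231, of 10976 bases, had 7.16, 9.69, 10.004, 7.05 and 8.32 CPM in LCO 10 mg/L pools 1, 2, 4, 5 and 6, and 4.14, 5.83, 2.94, 6.5 and 2.71 CPM in ion pools 1, 3, 4, 5 and 6. The log2 fold change was 0.91 (SE 0.24, edgeR adjusted p = 0.0291), and the groups did not overlap. This call held in 9 of 18 alternatives. Among others it was lost without LCO 10 mg/L pool 2, 4 or 6 or ion pool 1, 4 or 6 (edgeR adjusted p from 0.0511 to 0.0646) and with all 20 libraries in the fit (0.631). KZS12046, of 6916 bases, had 8.26, 10.5, 9.98, 6.96 and 7.49 CPM against 6.47, 2.56, 5.4, 6.26 and 3.19 CPM in the same order of pools. Its log2 fold change was 0.84 (SE 0.25, edgeR adjusted p = 0.0404), also without overlap. That call held in 7 of 18 alternatives and was lost, among others, without any 1 of the LCO 10 mg/L pools or without ion pool 3, 4 or 6 (edgeR adjusted p from 0.0623 to 0.0872), and with all 20 libraries (0.667). KZS03231 was one of the 20 members that were higher in LCO 1 mg/L pool 5 (696 CPM) than in control pool 1 (379 CPM).

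**Figure D4:**
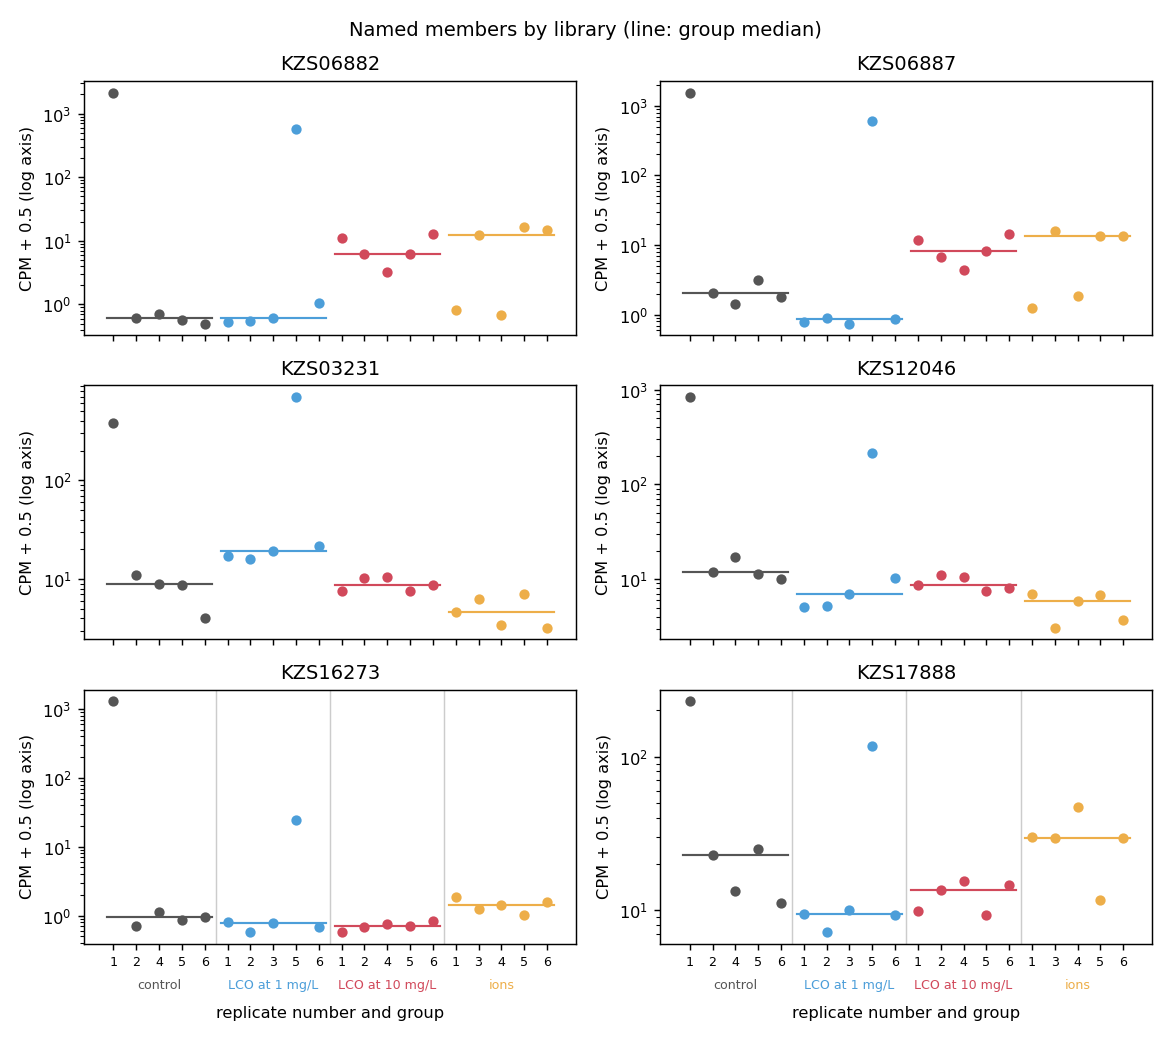
CPM + 0.5 on a log axis for 6 members in each of the 20 libraries, coloured by group, with a line at the group median. In all 6 panels control pool 1 and LCO 1 mg/L pool 5 are the highest points, and KZS06882 and KZS06887 are low in ion pools 1 and 4.

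In the comparisons with control, the members' calls turned on the high pools. These comparisons use the libraries that chose the members and share the control libraries, so the counts are descriptions. With all 20 libraries, 135 members were tested. Of these, 40 (29.6%) were called lower at 10 mg/L LCO than in control and 0 higher, where 16.7% of all targets tested were called lower and 13.7% higher (30.4% in all). For the ions, 52 (38.5%) were called lower and 0 higher, where 24.7% of all targets were called lower and 25.4% higher (50.1% in all). At 1 mg/L, 0 members were called by edgeR, where it called 9.33% of all targets (5.64% higher and 3.69% lower). An unadjusted edgeR p under 0.05 was found there for 11 members (8.15%), against 25.3% of all targets. DESeq2 and limma also called 0 members at 1 mg/L, where they called 14% and 8.97% of all targets. DESeq2 called 2 members, both lower, at the higher LCO dose and 0 with ions, where it called 33.7% and 52.2% of all targets. On log2(TPM + 1), limma called 0 members in both, where it called 27.6% and 48.2% of all targets. At an unadjusted p under 0.05 DESeq2 had 3 and 0 members and limma 1 in either comparison. By default DESeq2 withholds the p-value of a target with an extreme library in a group of this size. Targets without a p-value were counted as not called, and their number among the members was not recorded. The members were chosen for such a library in control and at 1 mg/L. The low DESeq2 counts against control are therefore no negative result. Without any 1 of the LCO 10 mg/L pools, 19 to 23 members were called lower at that dose, and 23.9% to 30.2% of all targets were called in either direction. Without ion pool 1, 3, 4 or 6, between 28 and 32 were called lower for the ions, and 43.5% to 47.6% of all targets in either direction.

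Without the high pools the direction turned. With control pool 1 and LCO 1 mg/L pool 5 both left out, 128 members were tested, and 55 (43%) were called higher at 10 mg/L LCO than in control, where 12.5% of all targets were called higher, 16.1% lower and 28.7% in all. The 3 members called lower at 10 mg/L were KZS13704, KZS06911 and KZS04324. With ions 64 (50%) were called higher, where 22.7% of all targets were called higher, 23.6% lower and 46.3% in all. The 4 called lower were KZS13704, KZS12046, KZS07518 and KZS03231. At 1 mg/L 2 members were called higher, KZS17619 and KZS03231, and 4 lower, KZS19762, KZS17888, KZS09335 and KZS06886, where 5.74% of all targets were called higher, 3.51% lower and 9.25% in all. The members named in these counts were picked after their values were seen. For KZS06887 the log2 fold change at 10 mg/L LCO over control was -5.31 (SE 2.37) with all libraries and 2.36 (SE 0.7) without both high pools. The rule requires the remaining control libraries to be low in the members, so these counts and fold changes are not independent of it.

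Leaving out only 1 of the high pools also moved the calls, in a way that depended on which pool was left out. Without control pool 1 alone, 8 members were called higher at 10 mg/L LCO, 10 higher with ions and 21 higher at 1 mg/L, and none was called lower in any of the 3 comparisons. At 10 mg/L 12.2% of all targets tested were then called higher, 14.9% lower and 27.1% in all. For the ions the shares were 22.8%, 22% and 44.8%, and at 1 mg/L they were 5.25%, 3.02% and 8.27%. Without LCO 1 mg/L pool 5 alone, 88 members were called lower at 10 mg/L, 91 lower with ions and 103 lower at 1 mg/L, with none higher. At 10 mg/L 17.9% of all targets were then called lower, 13.2% higher and 31.1% in all. For the ions these shares were 26.2%, 24.3% and 50.5%, and at 1 mg/L they were 5.53%, 6.73% and 12.3%. That library is in neither group of the comparisons of control with 10 mg/L LCO and with ions, and enters them through the estimates that all libraries share.

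**Figure D5:**
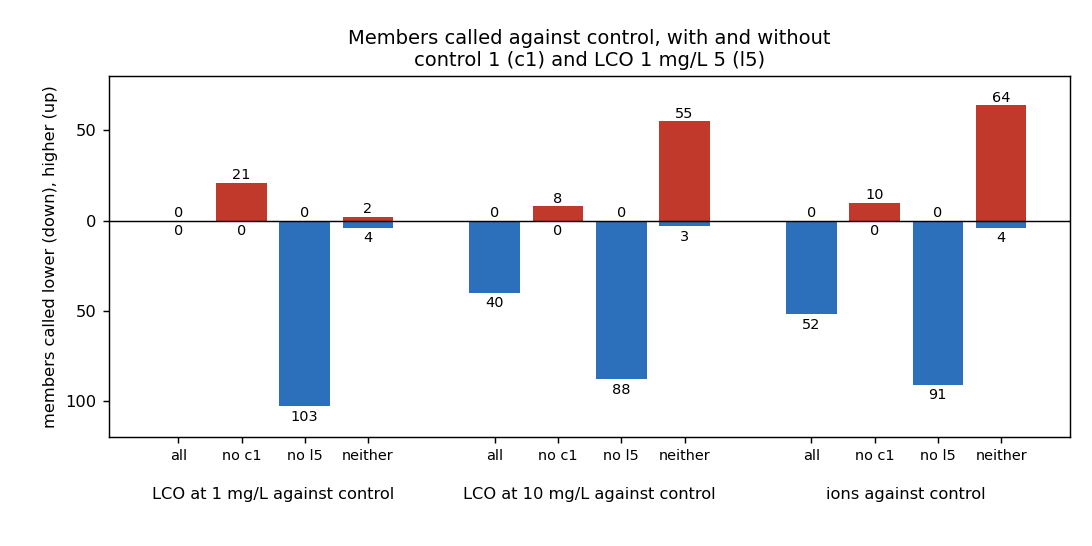
Number of members called higher (up, red) and lower (down, blue) than control at an adjusted p of 0.05 in edgeR for each exposure, with all libraries, without control pool 1 (no c1), without LCO 1 mg/L pool 5 (no l5) and without both (neither). At 10 mg/L LCO the calls pass from 40 lower with all libraries to 55 higher and 3 lower without both.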

How the data were processed

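RNA of 20 pools was deposited as 1 table per library. Estimated counts were deposited per target as reads that were not normalized, per the file headers, and 87.5% to 90.3% of them are whole within 0.001. The same tables hold TPM values that the authors deposited, per the file headers, next to an effective length. Of the counting program, annotation and genome build, none is named in the labels or headers. The members, the lists and the tests were chosen with earlier results of these data known.

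CPM was computed from the estimated counts and the library sum. For tests, edgeR 4.0.16 (R 4.3.3) was run on the counts after rounding (filterByExpr by group with a minimum count of 10 and a minimum total of 15, TMM, quasi-likelihood test, two-sided, Benjamini-Hochberg adjustment over all targets tested, threshold 0.05). LCO at 10 mg/L against ions was fitted on its 10 libraries, and comparisons with control on all 20. An SE is the absolute log2 fold change over the root of the F statistic. No pair of libraries was identical, and within groups chi-square over its degrees of freedom was at least 21.6. Named members were the 2 with the highest mean TPM in the high pools, and in LCO at 10 mg/L against ions at most 2 higher and 2 lower with the smallest p. Gene lists by product name were not run, since no identifier had a name. Alternatives used DESeq2 1.42.0 and limma 3.58.1 (log2(TPM + 1)). Floors cover counting error only. Figures were drawn with matplotlib 3.10.9.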

Additional observations from a re-analysis of the deposited data

Results flagged for a closer look

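Of 28 groups of 5 values examined for a library far from the others, 14 did so, since the gap to the next library took more than 0.71 of the range of the 5 values. By chance about 1 in 20 would. All 14 were control pool 1 or LCO 1 mg/L pool 5, which the choice of members requires, so they add nothing to it. For the median over members of log2(CPM + 0.5) the ratio was 0.985 in control pool 1 and 0.992 in LCO 1 mg/L pool 5. For the 6 named members, control pool 1 had ratios of 1.0 for KZS06882 and KZS16273, 0.999 for KZS06887, 0.981 for KZS03231, 0.991 for KZS12046 and 0.936 for KZS17888. LCO 1 mg/L pool 5 had ratios of 0.999 for KZS06882, 1.0 for KZS06887, 0.992 for KZS03231, 0.975 for KZS12046, 0.99 for KZS16273 and 0.974 for KZS17888. No library of LCO at 10 mg/L or of the ions did so in these groups.

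In the edgeR fit of the 10 libraries of LCO at 10 mg/L and ions, 4 named members differed between these exposures, with log2 fold changes of 0.91 for KZS03231, 0.84 for KZS12046, -2.09 for KZS16273 and -1.29 for KZS17888. None of the 4 passed with all 20 libraries in the fit (edgeR adjusted p from 0.279 to 0.667). Of 18 alternatives, KZS03231 passed in 9, KZS12046 in 7 and KZS17888 in 15, and KZS16273 passed in 16 of 17.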

How the results depend on the processing

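The number of members was 172 to 180 when each comparison library was left out in turn, 146 and 209 with 1 and 0.1 CPM added, 175 with TMM-scaled sizes, 171 from TPM (156 shared), and 238 and 119 at 4 and 16 times. For LCO at 10 mg/L against ions, 9 members were called. The count was 3 to 14 over single libraries left out, where 8.11% to 35.6% of all targets were called. It was 5 of 40 members when only targets with a mean of 5 CPM or more were tested (28.2% of all targets). With all 20 libraries in the fit it was 0 (25.1%). For LCO at 10 mg/L against control the 40 calls became 8 to 88 over single libraries left out (23.9% to 33% of all targets). They became 2 with DESeq2 (33.7%), 0 with limma (27.6%) and 20 with only the groups compared (30.6%). For the ions against control the 52 became 10 to 91 over single libraries left out (43.5% to 52.5% of all targets). They became 0 with DESeq2 (52.2%), 0 with limma (48.2%) and 22 with only the groups compared (42%). The DESeq2 counts treat targets without a p-value as not called, which members with an extreme library invite. At 1 mg/L the 0 calls became 0 to 103 over single libraries left out (4.84% to 12.3% of all targets), and 6 without both high pools (9.25%). The cause of these changes was not tested, except that fewer libraries enter where some are left out.

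Whether the replicate numbers pair the libraries was not settled. Same-numbered libraries of LCO at 10 mg/L and ions had correlations of their deviations from -0.31 to 0.62, and 4 pairs are too few to decide. With the replicate number as a block, 14 members were called for LCO at 10 mg/L against ions, 10 higher and 4 lower and 3 of them shared with the 9, where 13.7% of all targets were called. The block left 0 members in each comparison with control, where it called 19.3% of all targets for LCO at 10 mg/L and 0 targets for the ions and for 1 mg/L, so those 0 counts say nothing about the members. The same libraries were also fitted without the block, an alternative chosen after the data were seen. The count was then 1 for LCO at 10 mg/L against ions, where 2.69% of all targets were called. It was 20 for LCO at 10 mg/L against control (30.6% of all targets) and 2 for the ions against control (28.8%). The block thus raised the share of all targets called for LCO at 10 mg/L against ions and lowered it in these comparisons with control. The 4 named members tested there kept their direction in all 71 alternative values and lost the call in 24. Levels under 0.145 CPM rest on fewer than 3 counts in the shallowest library.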

Other observations

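Beyond the members, 382 targets were at least 2-fold above all other libraries of their group in both control pool 1 and LCO 1 mg/L pool 5, members included, and 238 at least 4-fold (CPM + 0.5). Targets at most 0.5 times every other library of their group in both pools numbered 7, and 0 were at most 0.25 times. In control pool 1 alone 122 targets were that low at the first of these marks, and in LCO 1 mg/L pool 5 alone 40 were. These counts use the libraries that chose the members.

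The remaining members called between LCO at 10 mg/L and the ions were all lower with LCO. They were KZS06888 (log2 fold change -1.46), KZS07251 (-1.38), KZS17004 (-1.04), KZS17858 (-1.04) and KZS13779 (-1.11), with edgeR adjusted p-values from 0.0234 to 0.0469. KZS06888 belongs to the run of 11 adjacent identifiers, and its other 10 members were not called in this comparison.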
